A study of Mus musculus with 2 samples.

Results

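The genes described here are 9 chemokine ligand genes of myeloid cells, taken by symbol from a table of 46095 genes: the CC ligands Ccl2, Ccl3, Ccl4, Ccl5, Ccl6 and Ccl9 and the CXC ligands Cxcl2, Cxcl10 and Cxcl12. All 9 were in the table, and 8 of them had at least 20 counts over both libraries, as did 13363 genes in all. The study compared P2x7 knockout with wild type in mouse acute myeloid leukaemia (AML), and P2x7, the product of P2rx7, is a cation channel opened by ATP. Each group holds 1 RNA sequencing library. The first is labelled P2x7-KO in its genotype field and KD in its title, and the other is labelled wild type and Scr. Both were made from bone marrow cells sorted as positive for Mac1, whose alpha chain is encoded by Itgam, and for the receptor c-Kit, from C57BL/6 mice aged 8 weeks. The sources used here do not give how the leukaemia was made, how P2rx7 was disrupted, or the number of mice behind a library.

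Chemokines are small secreted proteins that steer leukocytes through G protein-coupled receptors. CC and CXC ligands are named for the spacing of the first cysteines of the protein. Myeloid cells make some of them quickly on inflammatory signals through NF-kB and AP-1, and others as part of their resting program, while stromal cells of the marrow are the classical source of CXCL12, which retains blood-forming cells there through CXCR4.

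The library labelled P2x7-KO held 12435916 counts and the library labelled wild type 12456212, so that 3 counts, taken as the detection limit, equal 0.236 and 0.247 CPM (counts scaled to a common library total by the TMM method). There are no replicates, so the values carry only 95% intervals of counting error. P2rx7 had 543 counts in the library labelled P2x7-KO and 229 in the library labelled wild type, so that the targeted gene was higher where the label says it was disrupted (2.27-fold, 1.94 to 2.66), and the libraries are called by their labels below. The P2rx7 log2 ratio of 1.18 came to 0.86 (0.63 to 1.09) after the adjustment for transcript length described below. With GC content adjusted for as well it was 0.89 (0.66 to 1.12), so that P2rx7 stayed higher but under 2-fold. Whether the labels were exchanged was not tested, and with exchanged labels every direction given here would turn round. A count per gene does not say which exons were read. The sort genes were both detected, with 6910 and 2274 counts for Itgam and 861 and 559 for Kit, in the same order. In sorted bulk cells, fewer cells of a type and less RNA per cell cannot be told apart.

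Stretches upstream of the RefSeq start site (140 bases each, GRCm38.p6, written 5′ to 3′ on the gene's strand) are shown for the 3 members with the most counts and for Cxcl2, which stood apart in the same direction as Ccl3. RefSeq entries were matched for 6 of the 9 members. Capitals mark matches, on either strand, to the NF-kB consensus or to TGANTCA, a loose AP-1 pattern with any base at N. In Ccl6 they mark a repeated stretch.
Ccl3, chr11:83649379-83649518, minus strand: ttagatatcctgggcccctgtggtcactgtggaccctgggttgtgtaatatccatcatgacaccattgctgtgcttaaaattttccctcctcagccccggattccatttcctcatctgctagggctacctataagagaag
Cxcl2, chr5:90903759-90903898, plus strand: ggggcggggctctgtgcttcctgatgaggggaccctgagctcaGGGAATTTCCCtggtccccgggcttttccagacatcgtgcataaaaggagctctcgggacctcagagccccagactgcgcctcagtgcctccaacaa
Ccl6, chr11:83593088-83593227, minus strand: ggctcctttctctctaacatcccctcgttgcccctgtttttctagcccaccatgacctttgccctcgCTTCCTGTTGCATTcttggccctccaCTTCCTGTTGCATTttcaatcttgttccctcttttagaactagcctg
Ccl9, chr11:83578637-83578776, minus strand: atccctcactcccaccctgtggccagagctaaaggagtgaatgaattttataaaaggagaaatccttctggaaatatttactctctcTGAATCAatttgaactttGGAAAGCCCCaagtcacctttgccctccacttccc

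Cxcl2 held the NF-kB consensus on both strands, in overlapping matches at positions -97 to -88 and -96 to -87, counted back from the start site. Ccl9 held it on the opposite strand, at positions -35 to -26. It also held a match to the AP-1 pattern (TGAATCA) at -53 to -47, which reads as a match on both strands. No match to either stood in the windows of Ccl3 and Ccl6, which says only that these letters are not there. Cxcl10, whose window is not printed and whose ratio was near 1, also held the NF-kB consensus, at -103 to -94. It matched the AP-1 pattern at -74 to -68 (TGAGTCA), while Cxcl12 held neither. Over 32851 promoter entries, 2.18% held the NF-kB consensus in the same window and 3.99% the AP-1 pattern. The Ccl6 window held a stretch of 14 bases a second time, at positions -73 to -60 and -47 to -34, and 1.89% of all entries held an exact repeat at least as long. These matches describe sequence, and no binding was measured.

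A gene was called 2-fold apart when its ratio of CPM values, labelled P2x7-KO over labelled wild type, was at least 2 in either direction and its counting interval excluded 1. Of the 8 ligand genes counted, 3 were lower (Ccl3, Ccl4 and Cxcl2), 3 were higher (Ccl5, Ccl6 and Cxcl12) and 2 were neither (Ccl2 and Ccl9). Over all genes counted, 8.95% were called lower and 10.8% higher. The median log2 ratio of the 8 was -0.52, a point between members on both sides, against 0.0050 over all genes counted. Over the members with at least 100 counts the median was -1.54, so that it depends on which members are counted. With so few members and 1 library per group, these shares describe the ligands in these libraries and nothing more. The plot of levels by library shows that the members span more than 2 orders of magnitude.

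**Figure D1:**
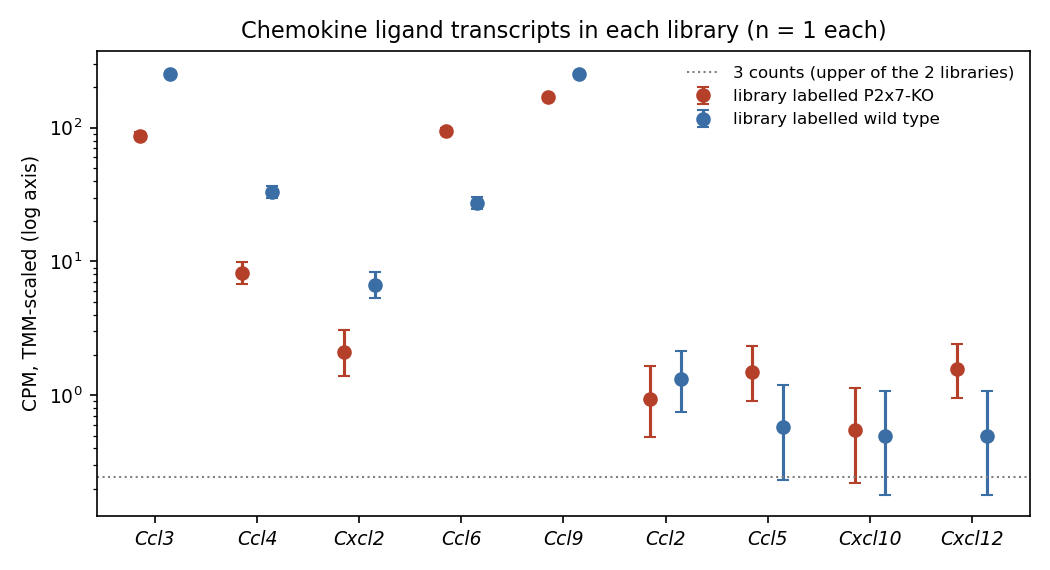
Level of each ligand transcript in CPM (TMM-scaled, log axis) in the library labelled P2x7-KO (red, left of each pair) and the library labelled wild type (blue), with exact 95% Poisson intervals and a dotted line at 3 counts. Ccl3, Ccl4, Cxcl2 and Ccl9 are lower and Ccl6 higher in the library labelled P2x7-KO, with intervals that do not overlap, while the low genes on the right have wide intervals.

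Ccl3, Ccl4 and Cxcl2 were the ligands called lower in the library labelled P2x7-KO. Ccl3 encodes macrophage inflammatory protein 1-alpha, a ligand of CCR1 that draws monocytes and restrains the cycling of blood-forming progenitors. It had 1107 counts, 86.9 CPM (81.9 to 92.2), in the library labelled P2x7-KO and 3067 counts, 252 CPM (243 to 261), in the library labelled wild type. The intervals lie far apart, and Ccl3 was 2.90-fold lower (2.71 to 3.11), a log2 ratio of -1.54. Its neighbour Ccl4, which encodes macrophage inflammatory protein 1-beta, an attractant of monocytes and T cells, had 105 and 404 counts in the same order, 8.25 CPM (6.74 to 9.98) against 33.2 CPM (30.1 to 36.6). Ccl4 was thus 4.03-fold lower (3.24 to 5.04). Cxcl2, which encodes a neutrophil attractant that acts through CXCR2, had 27 counts in the library labelled P2x7-KO and 81 in the library labelled wild type, 2.12 CPM (1.40 to 3.08) against 6.66 CPM (5.29 to 8.28). It was 3.14-fold lower (2.01 to 5.05), and its nearer bound lies close to 2-fold because the counts are few.

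Ccl3 and Ccl4 have short transcripts, and short transcripts as a class stood lower in the library labelled P2x7-KO. Among 1478 counted genes whose longest annotated transcript is under 1000 bases, the median log2 ratio was -0.67 and 29.1% were called lower, whereas among 3709 genes of 4000 bases or more the median was 0.44 and 3.34% were called lower. The transcripts of Ccl3 (766 bases) and Ccl4 (660 bases) belong to the first class, and that of Cxcl2 has 1859 bases. After subtraction of the trend with length, the log2 ratio of Ccl3 was -0.95 (-1.05 to -0.85), just under the 2-fold rule, and after subtraction of the trend with length and GC content it was -1.15 (-1.25 to -1.05). Over all genes, 5.55% were called lower and 8.54% higher with the first adjustment, and 5.19% lower and 8.01% higher with the second. The log2 ratio of Ccl4 was -1.38 and -1.48 after these steps and that of Cxcl2 -1.41 and -1.67, so that both stayed past 2-fold.

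**Figure D2:**
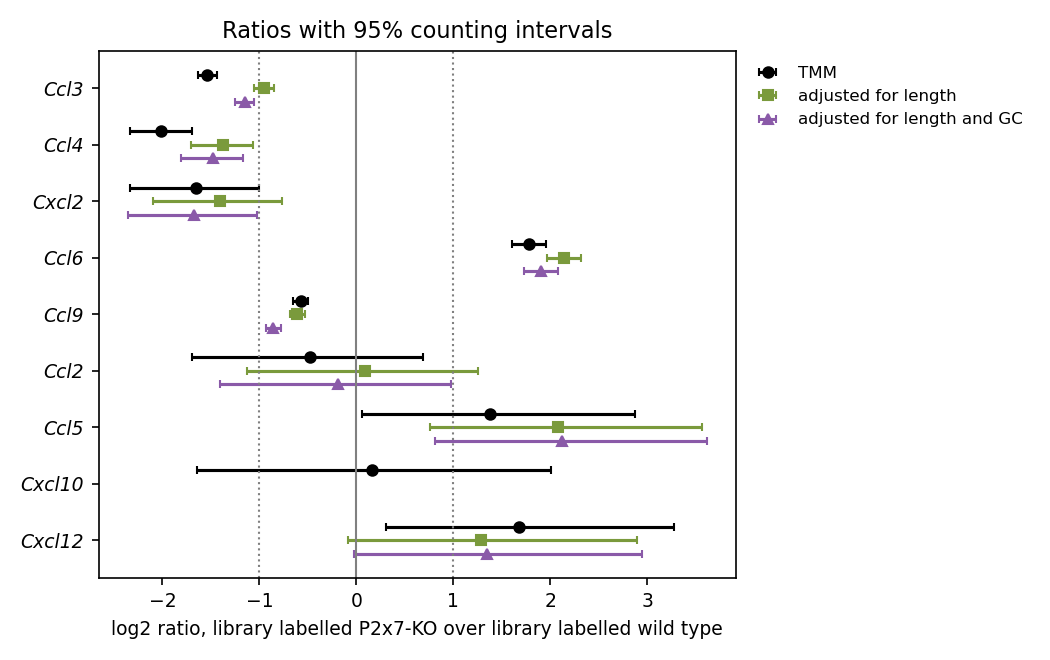
Log2 ratio of each ligand gene, library labelled P2x7-KO over library labelled wild type, with 95% counting intervals: unadjusted (TMM, black circles), adjusted for transcript length (green squares) and adjusted for length and GC content (purple triangles). Dotted lines mark 2-fold. Ccl3 comes to -0.95 after adjustment for length, and Cxcl10, with under 20 counts, has only the unadjusted value.

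Ccl6 went the other way. It encodes C10, a CCR1 ligand of rodents that myeloid cells express. It had 1200 counts, 94.2 CPM (89.0 to 99.7), in the library labelled P2x7-KO and 334 counts, 27.5 CPM (24.6 to 30.6), in the library labelled wild type. Ccl6 was 3.43-fold higher (3.04 to 3.89), with intervals far apart, and its log2 ratio of 1.78 was 2.14 when adjusted for length and 1.90 when adjusted for length and GC content. The long noncoding RNA gene E230016K23Rik overlaps Ccl6 on the opposite strand and had 19 and 2 counts in the same order. The sources used here do not say whether the counting used strand. How many reads of the overlap were left out, or were given to either gene, cannot be told from these counts.

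Ccl9, which encodes macrophage inflammatory protein 1-gamma, another rodent CCR1 ligand, had the most counts of the ligands in both libraries. It had 2158 counts, 169 CPM (162 to 177), in the library labelled P2x7-KO and 3070 counts, 252 CPM (244 to 261), in the library labelled wild type. The intervals do not overlap, but the difference of 1.49-fold lower (1.41 to 1.57) did not reach the 2-fold rule. Its log2 ratio was -0.57, and -0.61 and -0.86 after the 2 adjustments. Ccl6 and Ccl9 are neighbours of like exon structure, with 4 exons each and starts 14.5 kb apart.

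Ratios between ligands within a library do not depend on how the libraries are scaled, and 6 pairs were compared, chosen after the values were seen. There were 0.556 Ccl6 counts per Ccl9 count in the library labelled P2x7-KO and 0.109 in the library labelled wild type, a 5.11-fold difference (4.47 to 5.86). Ccl3 had 0.923 counts per Ccl6 count in the library labelled P2x7-KO and 9.18 in the library labelled wild type, which is 9.95-fold lower (8.64 to 11.5). The order of Ccl3 and Ccl6 by counts was therefore opposite in the 2 libraries. Ccl3 per Ccl9 was 0.513 and 0.999 in the same order, 1.95-fold lower (1.78 to 2.13). The pair ratios are not adjusted for transcript length, and Ccl3 has the shorter transcript (766 against 3006 bases). With adjustment for length the log2 ratios of Ccl3 and Ccl9 between the libraries were -0.95 and -0.61. They were -1.15 and -0.86 with GC content adjusted for as well, closer together than the unadjusted -1.54 and -0.57. Between the 2 MIP-1 genes, Ccl3 per Ccl4 was 10.5 and 7.59, a ratio of 1.39 (1.10 to 1.76), so that Ccl4 was lower relative to Ccl3. Ccl3 per Cxcl2 was 41.0 and 37.9, a ratio of 1.08 (0.689 to 1.75), and Ccl4 per Cxcl2 was 3.89 and 4.99, a ratio of 0.780 (0.471 to 1.32). A difference between the shifts of Cxcl2 and those of Ccl3 or Ccl4 was not detectable at this depth.

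The 9 ligand genes held 4655 counts together in the library labelled P2x7-KO and 6991 in the library labelled wild type, 366 against 575 CPM, which is 1.57-fold lower (1.51 to 1.63). Ccl3, Ccl6 and Ccl9 made up 95.9% and 92.6% of them. Ccl3 took 23.8% (22.6 to 25.0, Clopper-Pearson) of the ligand counts in the library labelled P2x7-KO and 43.9% (42.7 to 45.0) in the library labelled wild type. Ccl6 took 25.8% (24.5 to 27.1) and 4.78% (4.29 to 5.30), while Ccl9 took 46.4% (44.9 to 47.8) and 43.9% (42.7 to 45.1). The shares that changed most were thus those of Ccl3 and Ccl6. Ccl9 kept near the same share of a smaller sum, being itself 1.49-fold lower in CPM. The shares are of raw counts and are not adjusted for transcript length.

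**Figure D3:**
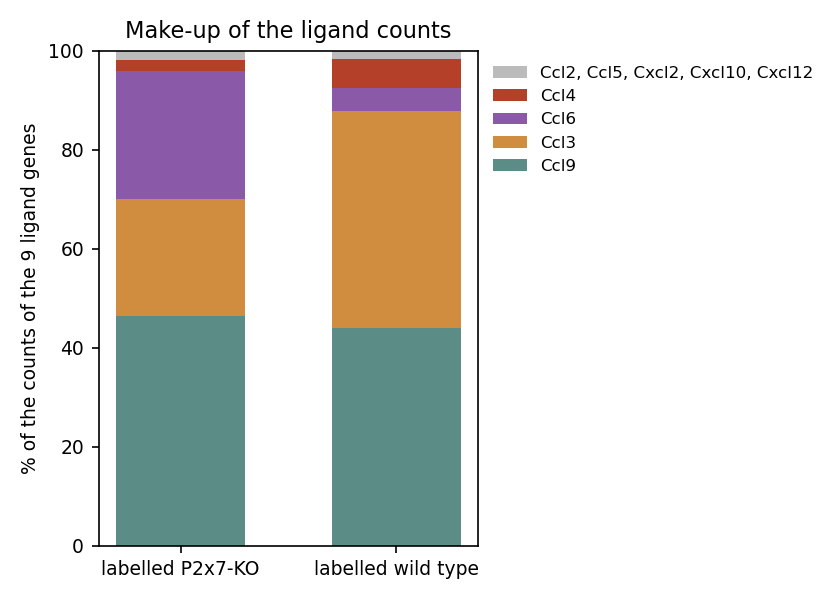
Share of the summed counts of the 9 ligand genes (per cent, stacked to 100) taken by each gene in the library labelled P2x7-KO (left, 4655 counts) and the library labelled wild type (right, 6991 counts). The Ccl6 segment is 25.8% against 4.78% and the Ccl3 segment 23.8% against 43.9%.

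Levels of different genes were compared per kilobase of the longest annotated transcript. Which transcript form was read is not known, and the trend with length between the libraries was not taken out. Ccl3 led in both libraries, at 113 CPM per kb in the library labelled P2x7-KO and 329 in the library labelled wild type. It ranked 550 and 221 among 12370 counted genes of known transcript length. Ccl6 followed in the library labelled P2x7-KO at 65.4 CPM per kb, ahead of Ccl9 at 56.4 and Ccl4 at 12.5, with intervals that do not overlap. In the library labelled wild type the order was Ccl9 at 84.0, Ccl4 at 50.3 and Ccl6 at 19.1 CPM per kb, again apart. Ccl6 thus ranked 1127 in the library labelled P2x7-KO against 4214 in the library labelled wild type, and Ccl4 5637 against 1797. The rest were low in both. In the library labelled P2x7-KO they ran from Ccl5 (2.80 CPM per kb) through Ccl2 (1.16), Cxcl2 (1.14) and Cxcl10 (0.406) to Cxcl12 (0.279), and each neighbour's interval overlaps the next. In the library labelled wild type Cxcl2 (3.58) stood apart above Ccl2 (1.62), Ccl5 (1.08), Cxcl10 (0.365) and Cxcl12 (0.0877), whose neighbouring intervals overlap.

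The remaining 4 ligands had few counts. Ccl2, a monocyte attractant that acts through CCR2, had 12 counts in the library labelled P2x7-KO and 16 in the library labelled wild type, 0.942 CPM (0.487 to 1.65) against 1.32 CPM (0.752 to 2.14). The ratio of 0.716 (0.309 to 1.61) includes equality, so that a difference was not detectable at this depth. Cxcl10, an interferon-induced ligand of CXCR3, had 7 and 6 counts in the same order, a ratio of 1.11 (0.321 to 4.01), and was below the count minimum. It lies within Art3, a gene on the opposite strand with 1 and 3 counts.

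Ccl5, a ligand of CCR1 and CCR3 that T and NK cells express strongly, had 19 counts in the library labelled P2x7-KO and 7 in the library labelled wild type, 1.49 CPM (0.898 to 2.33) against 0.575 CPM (0.231 to 1.19). The levels' intervals overlap, while the ratio of 2.59 (1.04 to 7.30) only just excludes equality. Its log2 ratio of 1.37 was 2.07 and 2.12 after the 2 adjustments. Of 11 T and NK genes, 10 had under 20 counts over both libraries, and Trac, Prf1 and Ncr1 were at 0 in both. Cd3e had 4 counts against 0, Cd3g 4 against 1 and Klrb1c 14 against 1. The list summed to 11.3 against 25.6 CPM, of which Nkg7, with 105 and 307 counts, is the largest part and was called lower (median log2 ratio of the list -1.61, resting on this gene alone). The part of such cells in the Ccl5 counts was not tested.

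Cxcl12 had 20 counts in the library labelled P2x7-KO and 6 in the library labelled wild type, 1.57 CPM (0.959 to 2.43) against 0.493 CPM (0.181 to 1.07). Its ratio was 3.18 (1.23 to 9.69). The call did not hold after adjustment for length, where the log2 ratio was 1.28 (-0.09 to 2.89), or for length and GC content, at 1.34 (-0.03 to 2.95). Of 12 stromal and endothelial genes, 11 had at most 5 counts in either library, among them Lepr with 2 in each, Col1a1 with 2 and 5, and Kitl with 1 and 0. The stromal list summed to 55.4 and 92.2 CPM, nearly all from Pdgfrb, the 1 member counted, with 693 and 1104 counts (log2 ratio -0.74).

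Of 29 other chemokine ligand genes, 19 were at 0 in both libraries, among them Cxcl1's relatives Cxcl3 and Cxcl5, the platelet chemokines Pf4 and Ppbp, and Cxcl16. Since the counting settings are not given, such a 0 cannot be told from reads lost in counting. Only Ccl25 and Ccl27a reached 20 counts, 0 were called in either direction, and their median log2 ratio was 0.37. Ccl25 had 31 counts in the library labelled P2x7-KO and 16 in the library labelled wild type, and Ccl27a had 25 and 26. The log2 ratio of Ccl25, 0.89, came to 1.37 (0.45 to 2.33) after adjustment for length. It was 1.17 (0.26 to 2.14) with GC content adjusted for as well, so that Ccl25 passed the rule upward after either adjustment. By the Poisson interval, a count of 0 allows up to 0.290 CPM in the library labelled P2x7-KO and 0.303 CPM in the library labelled wild type. Cxcl3 shares 61 of the 1810 stretches of 50 bases in the Cxcl2 transcript (3.37%), and the reads of those stretches cannot be assigned to 1 gene. Of the other members only Ccl9 shares any with another gene, 1.93% of its stretches.

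The 6 CC ligand genes lie on chromosome 11 (mm10, GENCODE M21), between 82035571 and 83664683. Ccl2 (82035571 to 82037453, plus strand) stands 1495 kb from the start of Ccl5 (83525778 to 83530518, minus strand). Ccl9 (83572919 to 83578636, minus strand), Ccl6 (83587882 to 83593087, minus strand), Ccl3 (83647844 to 83649355, minus strand) and Ccl4 (83662584 to 83664683, plus strand) follow, all within the 138.9 kb that run to the end of Ccl4 from the first base of Ccl5. Along this stretch the ratios alternate in direction: Ccl5 and Ccl6 were higher, with Ccl9 between them lower by less than the rule, and Ccl3 and Ccl4, whose starts are 13.2 kb apart, were lower. Ccl6 and Ccl3, with starts 56.3 kb apart, stood in opposite directions. The members on other chromosomes are Cxcl2 (chromosome 5, 90903871 to 90905938), Cxcl10 (chromosome 5, 92346638 to 92348889) and Cxcl12 (chromosome 6, 117168535 to 117181367).

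**Figure D4:**
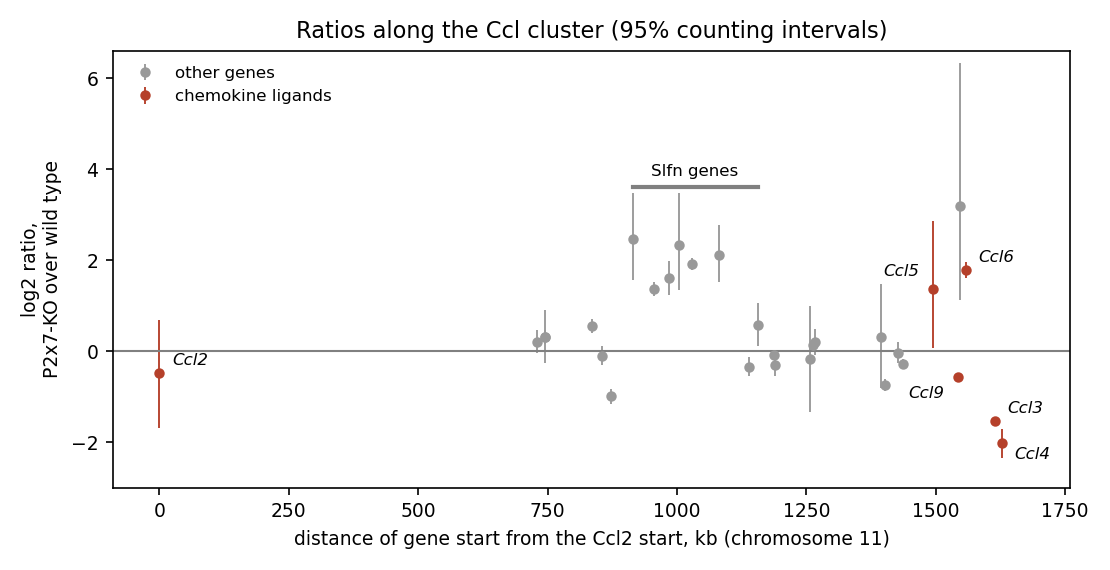
Log2 ratio, library labelled P2x7-KO over library labelled wild type, of every gene with at least 20 counts between Ccl2 and Ccl4, by distance of its start from the Ccl2 start in kb; bars are 95% counting intervals. The ligand genes (red) at the right end lie on both sides of 0, from Ccl6 at 1.78 to Ccl4 at -2.01, and a grey bar marks the Slfn genes.

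Ccr1 and Ccr2 were the receptor genes called higher in the library labelled P2x7-KO. Of 12 chemokine receptor genes, 5 were counted, with 2 higher and 0 lower and a median log2 ratio of 0.90, against 10.8% of all genes called higher and 8.95% lower. Ccr1, whose product binds the ligands encoded by Ccl3, Ccl6 and Ccl9, had 921 counts against 250 (3.52-fold higher, 3.06 to 4.06), and Ccr2, whose product binds CCL2, had 415 against 61 (6.50-fold, 4.96 to 8.65). Cxcr4, the CXCL12 receptor gene, had 5374 against 2747 counts and was 1.87-fold higher (1.78 to 1.96), under the rule. Its log2 ratio of 0.90 came to 1.16 (1.09 to 1.22) after adjustment for length, past the rule. With GC content adjusted for as well it was 0.96 (0.89 to 1.03), under the rule. Cxcr2, with 47 counts against 28, and Ccrl2, with 30 against 28, had intervals that include equality.

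The NF-kB list holds subunits, regulators and targets of the factor. Of 14 counted of 18, 4 were higher (Bcl3, Birc3, Tnfaip2 and Rel) and 0 were lower, against 10.8% and 8.95% of all genes counted. After either adjustment 2 were higher and 2 lower. Upper quartile scaling left 2 higher and 0 lower. Rel had a log2 ratio of 1.02, which the joint adjustment for length and GC content took to 0.32, and Birc3 had 1.14, which it took to 0.99. The other 10 did not pass the rule, and the list's median log2 ratio was 0.14. Tnfaip3, which encodes a feedback inhibitor, with 245 counts against 408 (log2 ratio -0.80), and Nfkbiz, an atypical IkB gene, with 256 against 445 (-0.86), were below equality but within 2-fold. They came to -1.06 and -1.07 once length and GC content were adjusted for, and are the 2 then called lower. Nfkbia had 1782 against 1592 counts. Tnf and Il6 were at 0 in both libraries, where absence cannot be told from reads lost in counting. Il1b had 14 counts in each. Ptgs2, below the count minimum, had 0 counts in the library labelled P2x7-KO and 11 in the library labelled wild type. It was called lower only without that minimum. Among 10 genes counted of 14 that interferons induce or that relay their signal, Mx1 (3.05-fold, 2.29 to 4.11) and Rsad2 (4.30-fold, 1.42 to 17.5) were higher and 0 were lower, with a median of 0.17.

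Genes that process chemokines or pass on their signals went both ways, with 3 of 9 counted higher, 1 lower and a median of 0.48. The shares over all genes counted were 10.8% higher and 8.95% lower. Mmp8, a collagenase gene, was 3.89-fold higher (3.37 to 4.50), Ndst1, an enzyme gene of heparan sulfate synthesis, 2.86-fold (2.58 to 3.17), and Dpp4, whose protease trims several chemokines, 2.72-fold (2.28 to 3.25). The Dpp4 log2 ratio of 1.44 came to 1.09 when length was adjusted for. It came to 0.89, under the rule, when length and GC content were adjusted for. Mmp9, also in this list, had 1102 against 554 counts. Its log2 ratio of 0.93 came to 1.02 (0.87 to 1.17) with the joint adjustment, past the rule. After either adjustment 3 of the list were thus higher and 1 lower. Rgs1, which encodes a brake on G protein signalling from chemokine receptors, had 13 counts in the library labelled P2x7-KO and 138 in the library labelled wild type, a ratio of 0.0900 (0.0467 to 0.159).

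Marker lists of blood cell types were also compared, and their part in the ligand values was not tested. Whether their counts came from the cells sorted for or from others was not tested either. For each of these lists, the shares over all genes counted were 10.8% higher and 8.95% lower. Among 11 monocyte genes, 7 passed the rule upward and 0 downward, and 6 and 0 after either adjustment. Their median log2 ratio was 1.23, and their summed level was 5630 CPM in the library labelled P2x7-KO and 2681 CPM in the library labelled wild type, the direction of Ccl6 and opposite to Ccl3. Of 8 neutrophil genes counted, Mmp8 was higher and S100a8 lower, though the log2 ratio of S100a8, -1.34, came under the rule after both adjustments (-0.62 and -0.84). The list stood at a summed 3059 against 3640 CPM and a median of -0.42 that became 0.15 with adjustment for length and GC content. Of 5 mast cell and basophil genes counted, Cpa3 (280 against 4058 counts) and Hdc (24 against 266) were lower and 0 higher, at 112 against 521 CPM and a median of -0.99, the direction of Ccl3, Ccl4 and Cxcl2, while Fcer1a was at 0 in both. Of 2 megakaryocyte genes counted, Vwf was higher and Itga2b lower (16.6 against 41.3 CPM, median -0.19), with Gp1ba, Pf4 and Ppbp at 0 in both. Of 4 B cell genes counted, Jchain and Igkc were higher and Ighm lower (99.2 against 131.8 CPM, median 1.23). The Ighm log2 ratio of -1.24 came to -0.96 and -0.98 after the adjustments, under the rule. Of 3 erythroid genes counted, Hbb-bs (58 against 1 counts) and Hba-a1 (41 against 2) were higher. The erythroid list summed to 92.0 against 76.1 CPM, and its median of 3.99 became 0.16 with a minimum of 100 counts or with none.

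**Figure D5:**
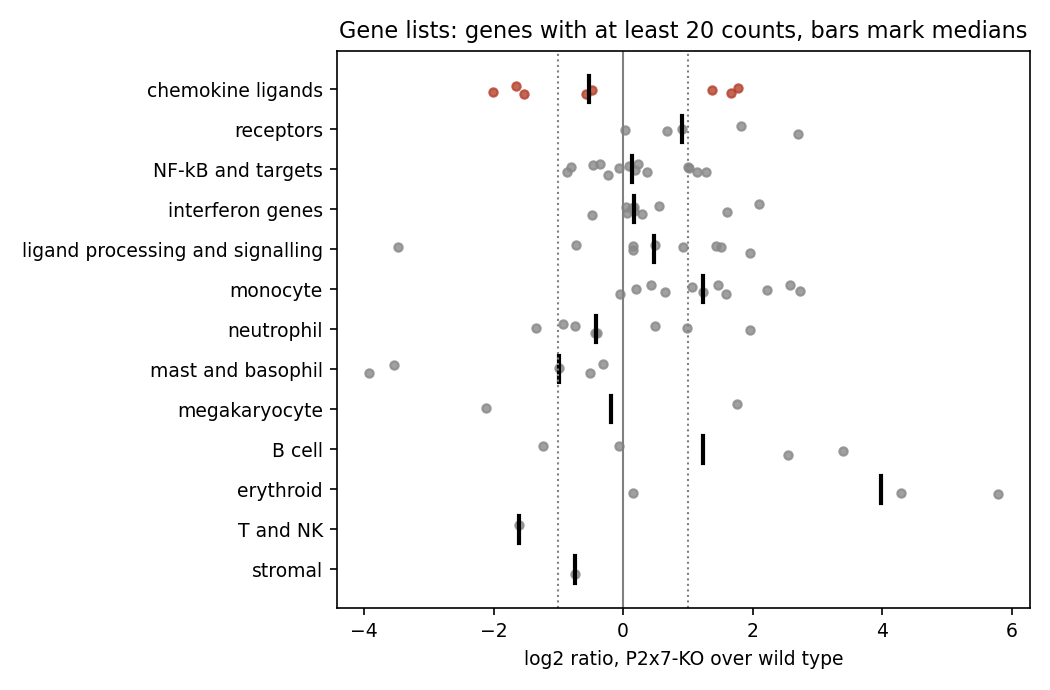
Log2 ratio, library labelled P2x7-KO over library labelled wild type, of each gene with at least 20 counts in the ligand group (red) and in the lists (grey; the other ligand genes are not drawn); black bars are medians and dotted lines mark 2-fold. Of the ligand genes, 3 lie below and 3 above the 2-fold lines and 2 near their median of -0.52, and the monocyte genes centre on 1.23.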

How the data were processed

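The authors deposited 1 table of raw counts, a column for each of 2 libraries, with 0 columns left out. Per the submitters' processing notes, HISAT2 2.0.4 and genome build mm10 were used. The sources used here do not give the counting program, its annotation, the strand setting or the handling of multiply mapped reads. A gene at 0 in both libraries, in any list, may therefore have lost its reads in counting. Libraries were scaled over all genes with TMM (edgeR 4.0.16, R 4.3.3). Ratios carry Clopper-Pearson and levels Poisson intervals (scipy 1.17.1). With 1 library per group no test or p-value was possible. Length, GC content and position came from GENCODE M21, matched by symbol for 92.6% of counted genes (12370). The trend was a weighted fit on splines with 4 knots, the weight being the gene's counts up to 200. List medians add 0.5 to each count. Calls and trend fit were checked on simulated data. The genes named are the ligands, P2rx7, Itgam and Kit, called ligands and receptors, up to 4 members per other list by the nearer interval bound, and further members named after their values were seen. The members and the 13 lists (153 entries, 0 not found) were chosen with earlier results of these data known. Alternatives were other scalings (total count, DESeq2 1.42.0, upper quartile), count minimums, folds and the adjustments. Some genes of these lists are not reported here.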

Additional observations from a re-analysis of the deposited data

How the results depend on the processing

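The ligand calls held with total count, DESeq2 and upper quartile scaling and with the 1.5-fold rule. Ccl3 and Cxcl12 fell under the rule after adjustment for length, Cxcl12 also after adjustment for length and GC content, and Ccl3 and Ccl5 with the 3-fold rule. With a minimum of 100 counts 1 ligand was called higher, since Ccl5 and Cxcl12 are too few to be counted. Among the 12370 genes of known length, 687 were lower when length was adjusted for and 642 when GC content was adjusted for as well, against 1068 unadjusted. With the minimum of 100 counts 704 of 10651 genes were lower, against 1196 of 13363. The 1.5-fold rule gave 2825 higher and 2521 lower, and the 3-fold rule 557 and 447, against 1447 higher and 1196 lower. No called ligand changed direction under these alternatives. Of 234 list counts, 30 differed by over 1.5 times, and of 111 list medians 23 left the counting interval of their middle genes. Without a count minimum the stromal, T and NK and megakaryocyte medians became 0.30, 2.59 and 0.46, and the B cell median became -0.06 with a minimum of 100. The erythroid median became 0.16 under either change, and the ligand median became -1.54 with a minimum of 100. No paired analysis was possible because each group holds 1 library. The depth limits Ccl2, Ccl5, Cxcl10 and Cxcl12, and the lack of replicates limits every value.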

Other observations

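Between Ccl2 and Ccl5 on chromosome 11 lies the Schlafen gene cluster, whose members encode growth-regulating and interferon-inducible proteins of leukocytes. These genes were noticed after the values were seen. Among 8 Slfn genes counted, 6 passed the 2-fold rule upward and 0 downward in the library labelled P2x7-KO. Their median log2 ratio was 1.75. Over all genes counted, 10.8% were called higher and 8.95% lower. Of the 16 other genes counted between Ccl2 and Ccl4 that are not ligands, 1 was higher and 0 lower, with a median of 0.05. Slfn2 had 2310 counts in the library labelled P2x7-KO and 588 in the library labelled wild type (3.75-fold higher, 3.43 to 4.12). Slfn9 had 1265 and 470 counts in the same order (2.57-fold, 2.31 to 2.86), and its log2 ratio of 1.36 was 0.80 after adjustment for length and GC content, under 2-fold. Slfn4, at 347 and 419 counts, and Slfn3, at 102 and 65, were neither. Members of this family resemble each other, and their values are uncertain where reads could map to more than 1 of them.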
